A study of Mus musculus with 4 samples.

Results

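The 10 genes described here are the tumour suppressor p53 gene Trp53, its inhibitors Mdm2 and Mdm4, and the p53 targets Cdkn1a, Gadd45a, Eda2r, Ccng1, Aen, Phlda3 and Sesn2. They were chosen by symbol, with earlier results of these data known, and all 10 were found among the 23234 genes of the deposited comparisons. RNA sequencing was done on mouse extensively self-renewing erythroblasts (ESREs), immature red cell precursors that divide for long periods in culture, and 3 libraries were used. The first held proliferating cells with a short hairpin RNA (shRNA) against Setd8, the second held cells with a non-targeting shRNA that spent 6 h in maturation medium, and the third held proliferating cells with the non-targeting shRNA. Maturing cells with the Setd8 shRNA were not analysed here. All groups thus carried an shRNA, each group was 1 sample, and the labels do not give the vector, the hairpin sequence or the number of cultures behind a sample.

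p53 is a transcription factor that is held at a low protein level in unstressed cells. Mdm2 binds it and marks it for destruction, and Mdm4 binds it and blocks its activity. When DNA damage or faulty ribosome assembly releases p53, it switches on genes that stop the cell cycle, repair DNA or kill the cell, and also Mdm2, which closes a feedback loop. In red cell precursors the pathway is known for its part in Diamond-Blackfan anaemia, where defective ribosomal proteins activate p53. Setd8 is the enzyme that monomethylates histone H4 at lysine 20. In human cells it is also known to methylate a lysine in the tail of p53 and to dampen p53 activity at its targets.

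p53 binds DNA as a tetramer, at a pair of 10-base half-sites. RefSeq promoter windows (build GRCm38.p6), reaching from 250 bases before to 50 bases after an annotated start, were searched with the p53 consensus of 20 bases without a spacer. The C and G in the core of each half-site were required. With 3 mismatches or fewer, a match was present in 1.38% of 32851 windows and in 5 of the 13 windows of the 10 genes. These 5 windows belonged to 4 genes, Cdkn1a, Ccng1, Aen and Trp53. The matches are shown in capitals because 3 of these genes are p53 targets with values below and the other is p53 itself. A match is a resemblance in letters, not a measured binding site. Each line runs 5′ to 3′ on the strand of the gene.
Cdkn1a: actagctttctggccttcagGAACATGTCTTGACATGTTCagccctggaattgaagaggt
Ccng1: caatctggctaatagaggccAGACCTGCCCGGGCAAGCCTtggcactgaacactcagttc
Aen: aagccGGGCTTGTCCGGGCAAGGAGcttcc
Trp53: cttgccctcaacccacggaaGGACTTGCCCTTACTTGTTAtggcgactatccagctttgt
The Cdkn1a stretch lies at chr17:29090908-29090967 on the plus strand, and its match begins 51 bases before the more upstream of the 2 annotated starts of the gene. The Ccng1 stretch lies at chr11:40755442-40755501 on the minus strand, with its match beginning 195 bases before the start. Both matches had 1 mismatch, and 0.0670% of all windows held a match that close. The Aen stretch (chr7:78895932-78895961, plus strand) and the Trp53 stretch (chr11:69580264-69580323, plus strand) had 3 mismatches each. The Aen match begins 121 bases before the more downstream of its 2 annotated starts, and the Trp53 match begins 75 bases before its start. The windows of Mdm2, Mdm4, Gadd45a, Eda2r, Phlda3 and Sesn2 held no such match, which says only that these letters are not in these windows.

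Gadd45a and Eda2r, the 2 genes called lower in the knockdown below, both held the octamer ATTTGCAT in their windows, searched on both strands. It was present in 1.74% of all windows and in no window of the other 8 genes. This motif was chosen after the windows had been read, so these shares cannot show whether it sets the called genes apart. In all, 6 such motifs were searched. Of the others, CCAAT was in 8 of the 13 windows of the 10 genes (7 genes) and in 37.4% of all windows. GGGCGG was in 7 of the 13 windows (7 genes) and in 35.7% of all windows. TATAAA was in 2 of the 13 windows (Eda2r and Trp53) and in 13.6% of all windows. CACGTG was in 3 of the 13 windows (Aen, Eda2r and Trp53) and in 7.15% of all windows. The 120 bases before the start are shown for these 2 genes, with the octamer or its reverse complement in capitals.
Gadd45a: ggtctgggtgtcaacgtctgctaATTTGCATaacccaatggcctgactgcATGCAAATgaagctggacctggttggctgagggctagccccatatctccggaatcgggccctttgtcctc
Eda2r: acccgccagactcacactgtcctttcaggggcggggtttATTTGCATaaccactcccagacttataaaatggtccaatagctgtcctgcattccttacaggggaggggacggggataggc
The Gadd45a stretch lies at chr6:67037408-67037527 and the Eda2r stretch at chrX:97377210-97377329, both on the minus strand. Gadd45a held the octamer once on each strand, 97 and 70 bases before its start, and Eda2r held it once, 81 bases before its start. The GATA-type motif AGATAA, on either strand, was in none of the 13 windows of the 10 genes and in 11.2% of all windows.

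Levels are in FPKM, a fragment count divided by transcript length and by library size, so they can be compared between genes. Judged by what 1 fragment was worth in genes near the detection limit, the knockdown library was 1.43 times and the maturing control 1.55 times as deep as the proliferating control. These were the commonest ratios among such genes, held by 254 of 1807 and 131 of 2078 genes, so they are rough estimates. Absolute depth is unknown. Setd8 stood at 9.28 FPKM in the knockdown, 25.9 FPKM in the maturing control and 25.1 FPKM in the proliferating control, so the knockdown library held 37.0% of the proliferating control level. Gata2, named in the study's title as repressed by Setd8, had 129 FPKM in the knockdown, 29.6 FPKM in the maturing control and 54.9 FPKM in the proliferating control. All 12 red cell markers reached 1 FPKM in a library, and 6 lymphocyte markers stayed below it in all 3. Markers of other lineages moved with the knockdown. The 12 mast cell and basophil markers summed to 502 FPKM in the knockdown, 39.2 FPKM in the maturing control and 72.5 FPKM in the proliferating control. Of these 12, 11 were higher in the knockdown than in the proliferating control, and none was at 0 in all libraries. The 9 megakaryocyte and platelet markers summed to 28.8, 3.57 and 4.94 FPKM in the same order, with Ppbp at 0 in all 3. Of the 12 red cell markers, 3 (Gata1, Rhag and Kit, a receptor that mast cells also carry) were higher and 9 lower in the knockdown than in the proliferating control. They summed to 912, 3045 and 1963 FPKM, a sum carried by 2 globin rows, each a pair of near-identical genes. The other 10 summed to 367, 336 and 322 FPKM in the same order, a sum that was highest in the knockdown. Kit and Rhag carried most of that knockdown sum, at 120 and 119 FPKM, against 58.0 and 77.9 FPKM in proliferating control cells. Kit was not among the tested genes of that pair. All of the 10 but Gata1, Kit and Rhag were lower in the knockdown than in the proliferating control. Alas2 stood at 0.0900 against 4.55 FPKM and Spna1 at 0.124 against 4.84 FPKM. Rn45s, the precursor of ribosomal RNA, had 190.5 FPKM in the knockdown, 133 FPKM in the maturing control and 94.98 FPKM in the proliferating control. The part of these shifts in the values below was not tested, and in bulk RNA fewer cells of a type and less RNA per cell cannot be told apart.

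All 10 genes had a lower value in the proliferating knockdown than in the proliferating control, and Gadd45a and Eda2r fell past the threshold of the authors' deposited table. That comparison asked what a lower Setd8 level goes with in dividing cells. A gene was called where the adjusted p (q) of the authors' deposited table, from Cuffdiff, was at most 0.05. Of 11665 genes tested, 3.24% were called lower and 9.05% in either direction, against 2 of the 10 genes called lower and 0 called higher. A lower value, called or not, was held by 52.8% of all tested genes. The median log2 ratio of FPKM + 1 was -0.72 over the 10 genes, with a range from -1.57 to -0.21, and -0.02 over all tested genes. Each group had 1 library, so no difference has a replicate check. The standard errors below are those of the authors' model, taken as the deposited log2 ratio over the deposited statistic.

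**Figure D1:**
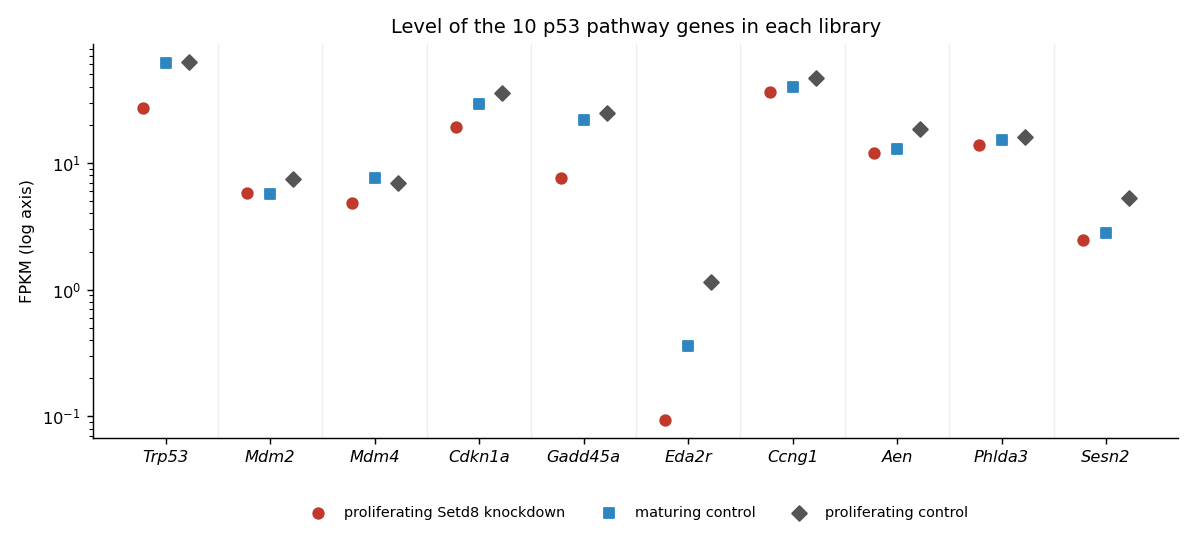
Level of each of the 10 genes on a log axis in FPKM, with 1 point per library (red circles, proliferating Setd8 knockdown; blue squares, maturing control; grey diamonds, proliferating control). The knockdown point lies below the proliferating control point for every gene, by the widest gap for Eda2r (0.0937 against 1.14 FPKM).

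Trp53 (chromosome 11, 69393860 to 69405375, mm9) was the most abundant of the 10 genes in both control libraries. It stood at 27.0 FPKM in the proliferating knockdown, 61.1 FPKM in the maturing control and 62.8 FPKM in the proliferating control. The knockdown library stood apart, at 42.9% of the proliferating control, while the control libraries were within 3 percentage points of each other. Its log2 ratio for the knockdown in the authors' deposited table, -1.22 ± 0.49 (model standard error), came with q = 0.147, so Trp53 was not called. RefSeq lists a pseudogene, Trp53-ps, and the sources used here do not say how shared fragments were assigned.

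The inhibitors of p53 differed less. Mdm2 (chromosome 10, 117125960 to 117147772) stood at 5.81 FPKM in the knockdown, 5.74 FPKM in the maturing control and 7.44 FPKM in the proliferating control. The authors' deposited table did not call it for the knockdown, at a log2 ratio of -0.36 ± 0.46. Mdm4 (chromosome 1, 134886421 to 134921925) stood at 4.86, 7.67 and 6.96 FPKM in the same libraries. Its log2 ratio for the knockdown was -0.52 ± 0.46, with a q of 0.977 in the authors' deposited table, and a pseudogene, Mdm4-ps, is listed for it in RefSeq. Mdm2 was thus similar in the knockdown and the maturing control, and Mdm4 was lowest in the knockdown. The level of Mdm2 was 0.216 of that of Trp53 in the knockdown, 0.0939 in the maturing control and 0.118 in the proliferating control. These 3 ratios rest on single libraries and were not tested.

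Of the targets that slow or stop the cell cycle, Gadd45a fell. Gadd45a (chromosome 6, 66985089 to 67030646), which encodes a stress protein that binds the proliferating cell nuclear antigen and Cdk1, stood at 7.68 FPKM in the knockdown, 21.8 FPKM in the maturing control and 24.8 FPKM in the proliferating control. The knockdown library again stood apart from both controls, at 31.0% of the proliferating control. In the authors' deposited table its log2 ratio was -1.69 ± 0.51, at q = 0.0157. The transcript E230016M11Rik has the same locus in the deposited table, at 0.367 FPKM in the knockdown, 0.863 FPKM in the maturing control and 0.907 FPKM in the proliferating control. The sources used here do not say whether fragments were counted by strand, so the split between both rows is uncertain. Cdkn1a (chromosome 17, 29227930 to 29237667) encodes p21, the inhibitor of cyclin-dependent kinases through which p53 arrests the cell cycle. It stood at 19.2 FPKM in the knockdown, 29.5 FPKM in the maturing control and 35.8 FPKM in the proliferating control. Its log2 ratio was -0.90 ± 0.42 with a q of 0.290 in the authors' deposited table, and it was not called. Ccng1 (chromosome 11, 40562053 to 40568788) encodes cyclin G1, which takes part in the feedback on p53 through Mdm2. It stood at 36.3, 39.8 and 46.9 FPKM in the knockdown, the maturing control and the proliferating control, with a log2 ratio of -0.37 ± 0.38 for the knockdown. Cdkn1a and Ccng1, the genes with the closest p53 consensus matches above, thus had lower values that were not called.

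Of the targets linked to cell death, Eda2r fell. Eda2r (chromosome X, 94529179 to 94572548), a receptor of the tumour necrosis factor receptor family, stood at 0.0937 FPKM in the knockdown, 0.358 FPKM in the maturing control and 1.14 FPKM in the proliferating control. It was the lowest of the 10 genes in every library and reached 1 FPKM only in the proliferating control. In the authors' deposited table its log2 ratio was -3.61 ± 0.73, at q = 3.22e-05. On the log2 scale of FPKM + 1 the same difference was -0.97, since the added value outweighs so low a level. Aen (chromosome 7, 86040812 to 86053719), a nuclease that p53 induces in dying cells, stood at 12.1 FPKM in the knockdown, 12.9 FPKM in the maturing control and 18.5 FPKM in the proliferating control. The knockdown and the maturing control were thus close, and the log2 ratio for the knockdown was -0.62 ± 0.50. Phlda3 (chromosome 1, 137662661 to 137665711), which restrains Akt signalling, stood at 13.8, 15.1 and 16.0 FPKM in the same libraries. Its log2 ratio of -0.22 ± 0.47 was the smallest of the 10 in size, with a 95% interval from -1.14 to 0.70. Neither Aen nor Phlda3 was called in the authors' deposited table.

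Sesn2 (chromosome 4, 132048721 to 132066371) encodes sestrin 2, which links p53 and amino acid shortage to mTORC1. It stood at 2.47 FPKM in the knockdown, 2.78 FPKM in the maturing control and 5.26 FPKM in the proliferating control. Here the proliferating control stood apart from both other libraries. The log2 ratio for the knockdown was -1.09 ± 0.53, and Sesn2 was not called, with a q of 0.318 in the authors' deposited table. Counted against the model's error, 5 of the 10 genes (Trp53, Cdkn1a, Gadd45a, Eda2r and Sesn2) had a lower value by over 2 standard errors. The share over all tested genes was 4.81%.

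**Figure D2:**
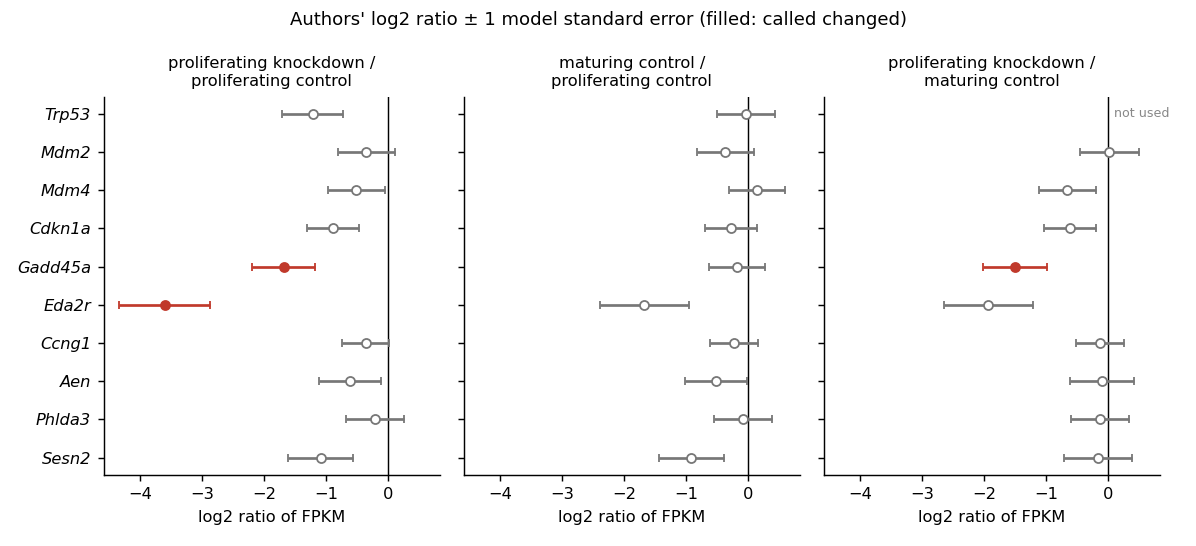
Log2 ratio of FPKM for each of the 10 genes in 3 comparisons, as the authors' deposited table gives it, with bars of 1 model standard error and filled red points for called genes. Gadd45a and Eda2r are called in the left panel, no gene in the middle panel and Gadd45a in the right panel, where Trp53 is not used.

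After 6 h in maturation medium, none of the 10 genes was called in the authors' deposited table, which called 1.75% of 11298 tested genes in that comparison. It set the maturing control against the proliferating control and so shares the proliferating control with the knockdown comparison. Values were lower for 9 of the 10 genes, against 46.5% of all tested genes, and higher for Mdm4. The median log2 ratio of FPKM + 1 was -0.25, with a range from -0.73 to 0.12, against 0.02 over all tested genes. Sesn2, at 52.8% of the proliferating control level, had a ratio of -0.92 ± 0.52 on the log2 scale, at q = 0.520 in the authors' deposited table. Eda2r, at 31.2%, had a ratio of -1.68 ± 0.72 (log2), at q = 0.197. It was the 1 gene with a lower value by over 2 standard errors, which 2.58% of all tested genes had. Trp53 differed least, with a log2 ratio of -0.04 ± 0.47 and a 95% interval from -0.97 to 0.89. Cdkn1a had a log2 ratio of -0.28 ± 0.42 and Gadd45a one of -0.18 ± 0.46.

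The proliferating knockdown was also set against the maturing control, a pair that differs in both hairpin and medium, so that their parts cannot be told apart. Trp53 was not analysed in this pair. Of the other 9 genes, 1 was called in the authors' deposited table: Gadd45a, called lower at q = 0.0470 with a log2 ratio of -1.51 ± 0.51. The table called 4.38% of 9241 tested genes lower in this pair and 11.6% in either direction. Lower values were held by 8 of the 9 genes and by 54.8% of all tested genes. The median log2 ratio of FPKM + 1 was -0.13 over the 9 genes, against -0.04 over all tested genes. Eda2r, with a log2 ratio of -1.93 ± 0.73 at q = 0.0923, was not called. Mdm4 and Cdkn1a had log2 ratios of -0.66 ± 0.46 and -0.61 ± 0.42. The remaining 5 genes, Mdm2, Ccng1, Aen, Phlda3 and Sesn2, lay between 88.8% and 101.3% of the maturing control level. Gadd45a was thus called in both comparisons that hold the knockdown library, which share that library.

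Other p53 targets came from 3 lists of 40 genes in all. In the knockdown against the proliferating control, 28 of them reached 1 FPKM in either library. The authors' deposited table called none of these 28 in either direction, while 3.95% of 9349 tested genes at that level were called higher and 2.03% lower. Values were lower for 21 and higher for 7, and the median of their log2 ratios of FPKM + 1 was -0.19, against -0.05 over all such genes. Cell death targets (10 genes) had a median of -0.33. Bax, the pore-forming protein of mitochondrial cell death, had 41.5 FPKM in knockdown cells, against 52.4 FPKM in the proliferating control. Trp53inp1, a stress protein that p53 induces, had the lowest ratio of the 3 lists, at 3.82 FPKM in the knockdown, against 7.57 FPKM in the proliferating control, with a q of 0.257 in the authors' deposited table. DNA repair and metabolism targets (11 genes) had a median of -0.16, and Gpx1, a glutathione peroxidase, stood at 250.7 FPKM in the knockdown, against 259.7 FPKM in the proliferating control. Cell cycle arrest targets (7 genes) had a median of 0.12. The antiproliferative gene Tob1 had the highest ratio, at 23.2 FPKM in the knockdown, against 10.9 FPKM in the proliferating control, with a q of 0.137 in the authors' deposited table. Bax, Trp53inp1, Gpx1 and Tob1 were chosen after their values were seen. Below 1 FPKM in both libraries, the authors' deposited table called Rprm higher and called Tnfrsf10b and Ak1 lower. At that level it called 21.5% of 2316 tested genes in either direction. Promoter windows were found for 30 of these 40 genes, 39 windows in all. Of the 30 genes, 6 had a p53 consensus match with 3 mismatches or fewer (Gtse1, Bbc3, Gpx1, Rps27l, Sesn1 and Tigar). Such a match was in 1.38% of all windows.

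For the maturing control against the proliferating control, 30 of the 40 other targets reached 1 FPKM in either library. Of these 30, Plk3 was the 1 called in the authors' deposited table. Plk3, a polo-like kinase of the stress response, fell to 0.703 FPKM in the maturing control, against 3.15 FPKM in the proliferating control, with a q of 0.00309. Calls of lower genes made up 0.803% of 9086 tested genes at that level. Lower values were held by 14 and higher values by 16 of the 30, with a median of 0.04.

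**Figure D3:**
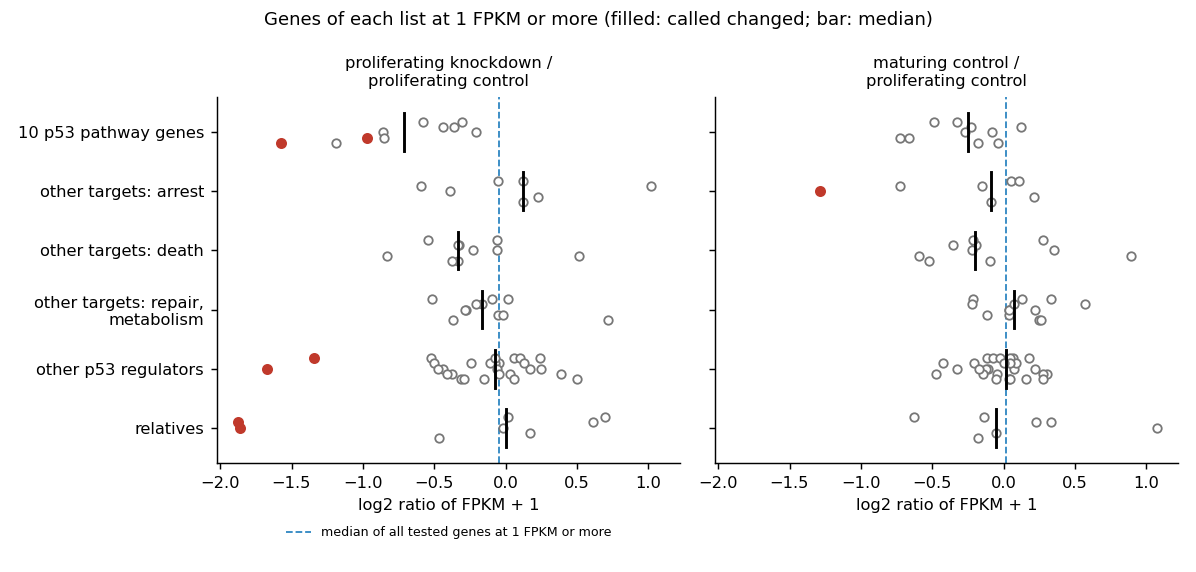
Log2 ratio of FPKM + 1 for genes at 1 FPKM or more, by list, for the knockdown (left) and the maturing control (right) against the proliferating control. Each point is a gene, filled red where the authors' deposited table called it, the black bar is the list median and the dashed line the median of all tested genes at that level. The median of the 10 genes is -0.72 on the left and -0.25 on the right.

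Of 30 other regulators of p53, 28 reached 1 FPKM in the knockdown or the proliferating control. The authors' deposited table called 2 of them lower, Cdkn2a and Setd8, the target of the hairpin, and none higher. Of all 9349 tested genes at that level, 2.03% were called lower and 3.95% higher. Setd8 was lowered by design, so of the 2 calls only that of Cdkn2a can be set beside these shares. Cdkn2a encodes p16Ink4a, a cell cycle inhibitor, and p19Arf, which blocks Mdm2 and so releases p53. The deposited row does not separate these products. Cdkn2a stood at 0.320 FPKM in the knockdown, 2.36 FPKM in the maturing control and 3.21 FPKM in the proliferating control, with a q of 7.79e-05 for the knockdown against the proliferating control. The median of the 28 was -0.07, with lower values for 18 and higher values for 10. Kinases of the DNA damage signal had levels between 1.505 and 6.58 FPKM in the 3 libraries (Atm, Atr, Chek1 and Chek2), and none of these 4 was called in any comparison. The ribosomal proteins Rpl5 and Rpl11, which bind Mdm2 when ribosome assembly fails, stood at 132 and 375 FPKM in the knockdown and at 136.7 and 391.9 FPKM in the proliferating control. The p53 relatives Trp63 and Trp73 were below 0.01 FPKM in all 3 libraries. For the maturing control against the proliferating control none of the 28 was called, beside 1.75% of all tested genes called in either direction.

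Of 13 genes of the same families as the 10, 8 reached 1 FPKM in the knockdown or the proliferating control. Of these 8, none was called higher and 2, Gadd45g and Phlda2, were called lower in the knockdown, beside the 3.95% and 2.03% given above for all genes at that level. Gadd45b and Cdkn1c were called higher but stayed below 1 FPKM in every library, where 21.5% of tested genes were called. In the Gadd45 family, Gadd45g was listed at 0 in the knockdown and stood at 6.66 FPKM in the maturing control and 2.63 FPKM in the proliferating control. It was called lower in the knockdown with a q of 0.00221 in the authors' deposited table. Gadd45b, at 0.432 FPKM in the knockdown, 0.188 FPKM in the maturing control and 0.113 FPKM in the proliferating control, was called higher in the knockdown with a q of 0.0271. Gadd45a was thus the most abundant of the 3 Gadd45 genes in every library. In the Phlda family, Phlda2 fell to 4.66 FPKM in the knockdown, against 19.8 FPKM in the proliferating control, at q = 0.00230 and a log2 ratio of -2.09 ± 0.54 in the authors' deposited table. Phlda1 stood at 1.53, 0.208 and 0.561 FPKM in the knockdown, the maturing control and the proliferating control. The authors' deposited table called it higher in the knockdown over the maturing control, at q = 1.21e-05, and did not call it over the proliferating control, at q = 0.0894. Whether Phlda3 differed from its relatives was not tested. Of the relatives of Cdkn1a, Cdkn1b, which encodes p27, stood at 7.88 FPKM in the knockdown, against 4.80 FPKM in the proliferating control without a call. Cdkn1c, which encodes p57, was called higher in the knockdown at 0.520 FPKM, against 0.0980 FPKM in the proliferating control, with a q of 0.00497 in the authors' deposited table. Sesn1 stood at 2.30, 3.20 and 2.34 FPKM in the knockdown, the maturing control and the proliferating control, and Ccng2 at 1.51, 1.26 and 1.48 FPKM.

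**Figure D4:**
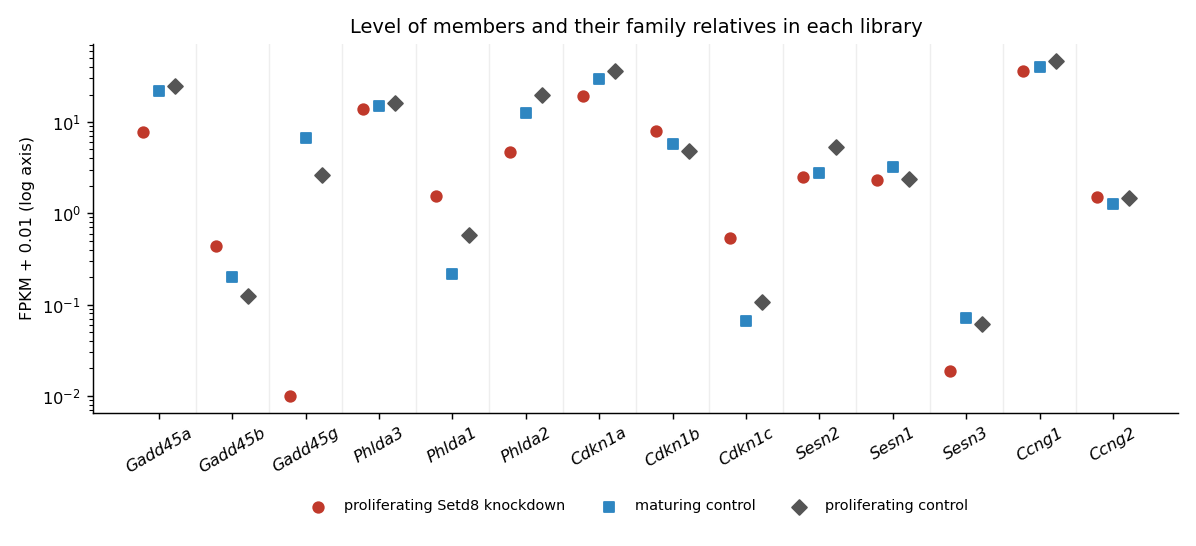
Level of 5 of the 10 genes and of 9 family relatives in each library, as FPKM + 0.01 on a log axis (red circles, proliferating Setd8 knockdown; blue squares, maturing control; grey diamonds, proliferating control). Gadd45a, Gadd45g, Phlda2, Phlda3, Cdkn1a, Sesn1, Sesn2, Sesn3 and Ccng1 lie lower in the knockdown than in the proliferating control, and Gadd45b, Phlda1, Cdkn1b, Cdkn1c and Ccng2 lie higher; the size of the gap differs widely between genes, and Sesn1 and Ccng2 nearly coincide.

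Likeness of pattern was measured as the distance between pairs of log2 ratios of FPKM + 1 (knockdown and maturing control, each over the proliferating control). The search covered 5129 genes at 5 FPKM or more in a library. Predicted or clone-named genes, ribosomal and short RNAs, mitochondrially encoded genes and rows of several genes had been left out by name. The distance rests on 3 libraries. The genes nearest to Trp53 were Fam65a, Sat1 and Smn1, at distances of 0.0995, 0.1002 and 0.142. Sat1, an enzyme of polyamine breakdown, stood at 9.13 FPKM in the knockdown, 20.8 FPKM in the maturing control and 22.8 FPKM in the proliferating control. Nearest to Gadd45a were Cdk2ap1, Plvap and Olfm1, at 0.0901, 0.130 and 0.148. Cdk2ap1, which binds and inhibits Cdk2, stood at 19.9 FPKM in the knockdown, 56.6 FPKM in the maturing control and 64.9 FPKM in the proliferating control. Umps, Gusb and Hs6st1 lay nearest to Cdkn1a, at 0.0425, 0.0451 and 0.0505. Cpsf1, Bola2 and Mapk14 lay nearest to Mdm2, at 0.0112, 0.0150 and 0.0162, where small ratios make many genes alike.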

How the data were processed

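RNA from cultured mouse erythroblasts was sequenced, per the labels' protocols. The submitters' processing notes name mm9 as the genome, and FastQC 0.10.1, Cufflinks 2.0.2 and Cuffdiff as tools. The sources used here give neither aligner nor annotation. Per the file headers, the authors deposited FPKM values, log2 ratios, a test statistic and p-values and q-values for pairs of libraries. The knockdown library was matched to its sample by target and number. The FPKM unit was read from the named tool. The pair of proliferating knockdown and maturing control covered 19067 genes. A few genes (3 per library), none of them described, had another value there.

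Each group had 1 library, so no test was run, and calls are the authors', at a q of 0.05. Tested genes are those the deposited table marks as tested. Model standard errors are the deposited log2 ratio over the statistic. The deposited p-value matched the normal tail of the statistic within 2.77e-06. Sizes are log2 ratios of FPKM + 1, which understates changes of low genes. FPKM gives no absolute depth, so no counting interval was computed.

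The 10 genes, the 10 further lists (130 entries, all matched, older symbols through RefSeq), the named-gene rule and the alternatives were chosen with earlier results of these data known. From a list, up to 5 called genes at 1 FPKM or more were named for each comparison, and other names were chosen after their values were seen. Promoter windows came from RefSeq by symbol (10 of 10 matched) and were used with their own build. All sums and scans were tested on simulated data. Tools were pandas 2.3.3, numpy 2.4.6 and scipy 1.17.1 under Python 3.11.15, with matplotlib 3.10.9 for plots.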

Additional observations from a re-analysis of the deposited data

How the results depend on the processing

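In the proliferating knockdown against the proliferating control, the count of 2 called genes was 1 with a q-value under 0.01 (Eda2r kept), 1 with a log2 ratio of FPKM + 1 of 1 or more in size (Gadd45a kept), and 1 among genes at 5 FPKM or more (Gadd45a kept). In the knockdown against the maturing control, the count of 1 was 0 with a q-value under 0.01. The other 8 counts under an alternative were as reported. All 10 genes had a lower value in the knockdown than in the proliferating control under all 4 other scalings. Another pseudocount cannot change the direction of a ratio, so it checks only the size. Over both other pseudocounts and the 4 scalings the median ran from -0.75 (pseudocount 0.1) to -0.39 (pseudocount 5). Ratios of the 10 genes moved by over 1 model standard error in 4 of 174 recomputed values, all of Eda2r. Its knockdown ratio was -2.68 with a pseudocount of 0.1 and -2.27 on the TPM scale. TPM values were larger than FPKM values here, so an added 1 weighs less on that scale too. No paired analysis was possible because each group had 1 library. Low levels limit Eda2r, Rprm, Tnfrsf10b and Ak1.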
